A study of Mus musculus with 12 samples.

Results

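The genes described here are 36 nuclear receptors and nuclear receptor cofactors, 29 receptors and 7 cofactors, chosen by name as a family and not by their values. Nr1d1 and Nr1d2, which are nuclear receptors too, were left out of this family. They were followed in muscle stem cells (MuSCs) of the mouse, the Pax7-positive cells that rest beneath the basal lamina of the myofiber until the muscle is injured. The table of the Nedd4L comparison lists 16169 genes, 35 of these 36 among them, and the table of the culture comparison lists 16503 genes and all 36. In each comparison 35 of the 36 could be tested. Vdr, the vitamin D receptor, is not listed in the first table, and in the second it reached 10 normalized counts in only 1 fresh and 1 myoblast library, so it was not tested. Rarb was the only gene of the family that passed the filter on low values of the culture comparison through 1 group alone, since its normalized counts in myoblasts lay between 4.78 and 6.01, so for it a difference followed from passing.

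RNA-seq libraries of 1000 cells each came from 4 groups of 3. Nedd4L-cKO MuSCs came from Nedd4L fl/fl, Pax7 cre/+ mice, in which Cre under the Pax7 locus removes exon 15 of this E3 ubiquitin ligase gene. The Cre also acts on Pax7-positive cells before birth, and reads from outside that exon do not report the deletion. The cKO cells were compared with MuSCs of WT mice, all male and 5 to 6 weeks old. In the other comparison, WT MuSCs lysed right after isolation were compared with WT primary myoblasts, which are sorted MuSCs grown for 3 days in growth medium. Libraries of the latter pair of groups share the numbers 4, 5 and 6 in their titles and a further number in their sample descriptions. The labels do not say whether a number stands for a mouse. All MuSCs were sorted from hindlimb muscle as ITGA7+ cells that lack CD31, CD45, CD11b and SCA1, and all mice had a C57BL/6 background. Levels are given as RPM, normalized counts scaled by the mean library total of their table, and log2 fold changes (log2FC) are of RPM + 1.

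Nuclear receptors are transcription factors, most of which are switched by a small lipid-soluble ligand such as a steroid, thyroid hormone, a retinoid, an oxysterol or a fatty acid. Steroid receptors bind DNA as homodimers, and the thyroid hormone, retinoic acid, vitamin D, PPAR and liver X receptors bind it with a retinoid X receptor (RXR) as the partner. Orphan receptors, among them the NR4A group, have no known ligand that switches them in the cell, and NR4A genes are themselves immediate early genes that a stimulus induces within minutes through CREB and serum response factor. A receptor recruits coactivators of the p160 group (Ncoa genes) or of the PGC-1 group, or corepressors such as Ncor1 and Nrip1. In skeletal muscle, glucocorticoid and estrogen receptors are known to act on MuSCs, and estrogen-related receptors with PGC-1 set the mitochondrial content of fibers.

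Promoters are shown for 4 receptors whose levels the results turn on. RefSeq (GRCm38.p6) held promoters for 31 of the 36 genes, 50 in all, and the 250 bases before each start were searched on both strands. Rarb is shown because its promoter carries the repeat GGTTCANNNNNAGTTCA, the element through which retinoic acid receptors induce this gene, which 2 of 32851 mouse promoters held (0.00609%). The 250 bases of Rarb lie at chr14:16575477-16575726 on the minus strand, and the repeat, in capitals, begins 53 bases before the start and ends 37 before it.
Rarb: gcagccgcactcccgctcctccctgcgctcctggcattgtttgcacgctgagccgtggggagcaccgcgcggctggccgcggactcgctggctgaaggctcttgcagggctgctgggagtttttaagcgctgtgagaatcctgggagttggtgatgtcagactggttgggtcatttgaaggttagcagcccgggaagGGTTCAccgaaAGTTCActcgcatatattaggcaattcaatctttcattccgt
The 3 NR4A genes are shown because a promoter of each held 4 matches to TGACG or its complement CGTCA, the core of a CREB site, in capitals. At least 1 such match was found in 17.8% of all promoters and at least 4 in 45 promoters (0.137%). Nr4a1 lies at chr15:101266596-101266845 (plus strand), Nr4a2 at chr2:57124004-57124253 (minus strand) and Nr4a3 at chr4:48045055-48045304 (plus strand).
Nr4a1: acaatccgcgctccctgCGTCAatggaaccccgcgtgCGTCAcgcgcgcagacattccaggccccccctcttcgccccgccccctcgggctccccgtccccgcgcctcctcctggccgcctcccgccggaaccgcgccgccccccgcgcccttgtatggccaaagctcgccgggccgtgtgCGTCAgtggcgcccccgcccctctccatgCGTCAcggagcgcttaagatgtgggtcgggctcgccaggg
Nr4a2: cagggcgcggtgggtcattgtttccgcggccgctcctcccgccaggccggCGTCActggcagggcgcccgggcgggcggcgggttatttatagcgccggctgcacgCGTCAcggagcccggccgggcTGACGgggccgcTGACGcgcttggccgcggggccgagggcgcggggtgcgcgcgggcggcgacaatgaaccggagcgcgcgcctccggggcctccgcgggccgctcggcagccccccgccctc
Nr4a3: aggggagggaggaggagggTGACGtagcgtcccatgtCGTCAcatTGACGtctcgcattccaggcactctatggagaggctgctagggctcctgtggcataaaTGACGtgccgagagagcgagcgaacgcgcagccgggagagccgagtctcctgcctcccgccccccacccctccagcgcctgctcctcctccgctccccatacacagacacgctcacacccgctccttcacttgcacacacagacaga
In Nr4a1 the matches span the bases 233 to 36 before the start, in Nr4a2 the bases 200 to 107 and in Nr4a3 the bases 231 to 143. The full palindrome TGACGTCA, which contains the core on both strands, was in 1.55% of all promoters and in none of the 50. The receptor core AGGTCA was in 14.0% of all promoters and likewise in 7 of the 50, and its longer form AAAGGTCA, to which NR4A monomers bind and which contains AGGTCA, was in 1.34% of all promoters and, among the family, in those of Rxra and Rxrg. The repeat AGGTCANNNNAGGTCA, on which thyroid hormone and liver X receptors bind with RXR, was in 5 promoters of the genome (0.0152%) and in none of these genes. A match is a description of letters and does not show binding.

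The libraries held 33189802 to 50687122 normalized counts, and judged from the step between low values the fewest reads per normalized count lay behind myoblast library 4, where a read was worth 1.31 normalized counts. Nedd4l itself was at 70.2, 96.4 and 66.7 RPM in WT MuSCs and at 30.2, 36.3 and 22.5 RPM in Nedd4L-cKO MuSCs (limma log2 fold change −1.37, SE 0.28, Benjamini-Hochberg adjusted p = 0.0467), and the 2 groups did not overlap. The 8 markers of MuSCs summed to 4994 to 9249 RPM in the libraries of the Nedd4L comparison and to 5518 to 7786 RPM in fresh WT MuSCs, against 783 to 852 RPM in myoblasts, where the cycling and committed markers summed to 5114 to 5772 RPM against 1088 to 1268 RPM in fresh cells. Of the 5 cycling and committed markers, 2 were higher in myoblasts at a limma adjusted p of at most 0.05 and 3 did not pass. That was 40%, against 42.8% of all genes tested, and 1 of the 5 had a log2 fold change below 0. Of 7 leukocyte markers 4 are listed, and they summed to at most 5.62 RPM in any library. The listed endothelial, Schwann and adipocyte markers summed to at most 103 RPM each. Other types were not as low. Fibro-adipogenic markers summed to 1325 to 3170 RPM in Nedd4L-cKO and 1562 to 2935 RPM in WT libraries. Tenocyte markers summed to 142 to 666 and 75.9 to 529 RPM there, and mural markers to 1120 to 1420 RPM in fresh WT MuSCs. Because these are bulk libraries, fewer cells of a type and less RNA per cell cannot be told apart.

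The culture comparison asks how the receptor complement of fresh MuSCs differs from that of primary myoblasts after 3 days in growth medium. Of the 35 genes tested, 19 passed an adjusted p of 0.05, 7 higher and 12 lower in myoblasts, where 42.8% of all 15345 genes tested passed, 22.2% higher and 20.6% lower. The 12 include Rarb, which passed the filter on low values through the fresh libraries alone. The groups did not overlap for 20 of the 35 genes, against 55.2% of all genes. The median log2 fold change was −0.11 over the family and 0.04 over all genes tested. Scaling each library to its own total moved the median of all genes to 0.14 and their split from 51.8% to 58.8% higher, and left 19 genes of the family called.

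**Figure D1:**
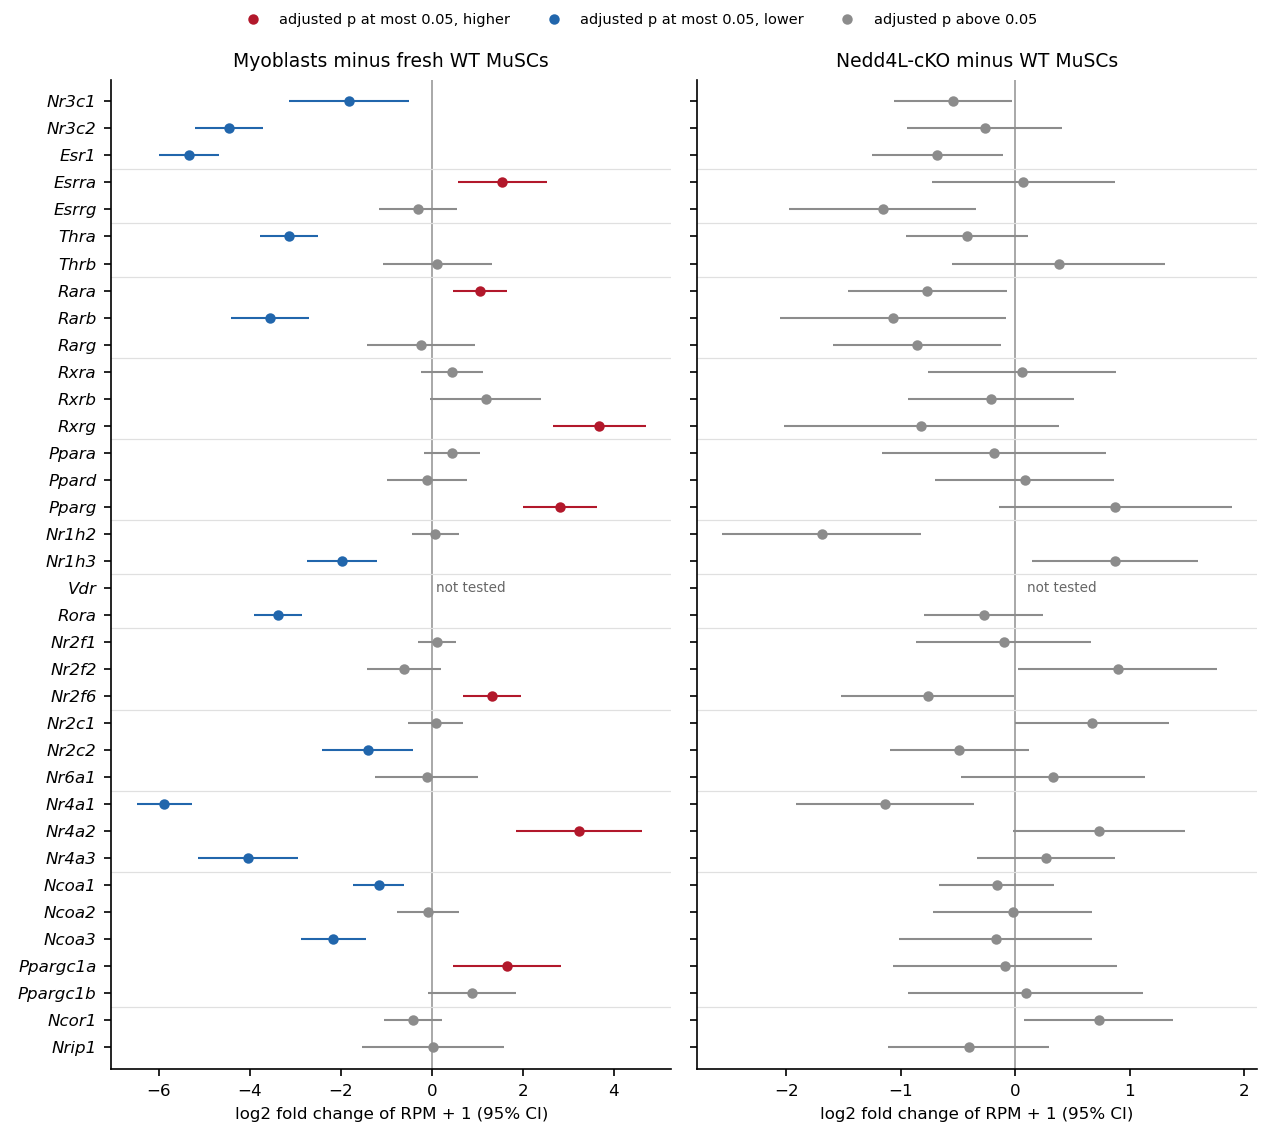
Log2 fold change of RPM + 1 with its 95% confidence interval (limma) for the 36 genes, grouped by family, for myoblasts against fresh WT MuSCs (left) and Nedd4L-cKO against WT MuSCs (right, narrower axis). On the left 12 genes are blue (lower) and 7 red (higher), and on the right all 35 tested genes are grey, with Nr1h2 farthest from 0 at −1.69.

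All 3 steroid receptors of the family were lower in myoblasts. Esr1, estrogen receptor alpha, was at 968, 545 and 603 RPM in fresh MuSCs and at 10.9, 19.2 and 18.9 RPM in myoblasts. Every fresh library lay far above every myoblast library, and the mean fell from 705 ± 230 to 16.3 ± 4.67 RPM (SD, n = 3), 43.3-fold, with a log2FC of −5.34 (SE 0.29, adjusted p = 4.4e-06 by limma). Nr3c2, the mineralocorticoid receptor, was at 44.7, 45.2 and 38.5 RPM in fresh MuSCs and at 0.452, 1.72 and 0.992 RPM in myoblasts. Every myoblast library was under 2 RPM, and log2FC was −4.46 (SE 0.33, adjusted p = 1.96e-05 by limma). Nr3c1, the glucocorticoid receptor, was at 105, 98.0 and 83.7 RPM in fresh MuSCs and at 7.80, 44.8 and 49.8 RPM in myoblasts. The groups did not overlap, but myoblast library 4 stood well below the other myoblasts, and the log2FC was −1.82 (SE 0.58, adjusted p = 0.0335 by limma). Without myoblast library 4 it was −1.0 (adjusted p = 0.00324), and without fresh library 4, 5 or 6 the adjusted p was 0.0829, 0.0851 and 0.0689.

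Of the receptors that bind DNA with RXR, some rose and others fell, so that the makeup of several families differed between the cell states. Thra, thyroid hormone receptor alpha, was at 82.6, 68.2 and 50.9 RPM in fresh MuSCs and at 5.35, 6.66 and 7.81 RPM in myoblasts. It fell 10.2-fold with no overlap (log2FC −3.15, SE 0.28, adjusted p = 4.98e-05 by limma). Its exons share 19.4% of their bases with Nr1d1 on the opposite strand, and the library kit did not keep the strand, so the reads of the pair cannot be fully told apart there. Nr1d1 fell as well, from 130 to 14.4 RPM (log2 fold change −3.25, limma adjusted p = 0.000934). Thrb, the beta form, was at 5.85 ± 1.8 and 7.53 ± 4.78 RPM (log2 fold change 0.12, limma adjusted p = 0.872).

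Rarb and Rara moved in opposite directions. Rarb, retinoic acid receptor beta, was at 7.98, 20.7 and 11.7 RPM in fresh MuSCs and at 0.152, 0.136 and 0.171 RPM in myoblasts. Every myoblast library was below 0.2 RPM, and the fresh mean was 88.2-fold above the myoblast mean. The log2FC was −3.55 (SE 0.38), which became −5.64 with a pseudocount of 0.1. Its adjusted p of 0.000134 by limma is no separate evidence, because Rarb passed the filter through the fresh libraries alone. Top2b, which overlaps 44.8% of the annotated exonic bases of Rarb on the opposite strand, was at 143 and 105 RPM (adjusted p = 0.158). Rara was at 11.6, 15 and 15.1 RPM in fresh MuSCs and at 33.1, 32.7 and 25.0 RPM in myoblasts. The groups did not overlap (log2FC 1.07, SE 0.26, adjusted p = 0.0102 by limma). Rarg, the gamma form, overlapped between the groups at 8.12 ± 4.77 and 6.69 ± 3.70 RPM. Per kilobase of exon, Rarb made up 42.1 ± 16.9% of the 3 retinoic acid receptors in fresh MuSCs and 0.578 ± 0.148% in myoblasts, where Rara held 73.6 ± 11.8%.

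Among the RXRs, the partners of these receptors, Rxrg rose. It was at 3.51, 0.803 and 2.15 RPM in fresh MuSCs and at 21.7, 43.6 and 53.0 RPM in myoblasts. Every myoblast library lay above every fresh library, and the mean was 18.3-fold higher (log2FC 3.69, SE 0.45, adjusted p = 0.000297 by limma). Rxra and Rxrb did not pass at 9.58 against 13.5 RPM and 12 against 26.6 RPM, with adjusted p of 0.256 and 0.107 (Rxrb 0.0396 without myoblast library 4). Rxrg thus accounted for 13.3 ± 9.16% of RXR transcripts per kilobase in fresh MuSCs and for 53.9 ± 7.38% in myoblasts.

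Pparg, the fatty acid receptor best known from adipocytes, was at 0.848, 1.00 and 0 RPM in fresh MuSCs and at 11.1, 10.2 and 8.66 RPM in myoblasts. It was at most 1.00 RPM in fresh cells and present in every myoblast library, 16.2-fold higher on the mean (log2FC 2.82, SE 0.36, adjusted p = 0.000364 by limma). Of 4 adipocyte markers only 1 is in that table, Plin1, and it was at most 0.753 RPM in the same libraries. Ppara and Ppard stayed under 4 RPM in every library of both groups and did not pass. The share of Pparg within the 3 PPARs was 12.4 ± 12.2% in fresh MuSCs and 71.7 ± 7.21% in myoblasts.

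Of the 2 liver X receptors, which sense oxysterols, Nr1h3 fell and Nr1h2 did not pass. Nr1h3 (LXR alpha) was at 5.05, 7.89 and 10.1 RPM in fresh MuSCs and at 1.32, 1.2 and 0.934 RPM in myoblasts, without overlap (log2FC −1.97, SE 0.34, adjusted p = 0.00178 by limma). Nr1h2 (LXR beta) was at 80.0, 60.0 and 59.4 RPM in fresh MuSCs and at 87.3, 60.0 and 63.9 RPM in myoblasts. These overlapped, with a log2 fold change of 0.08 and a 95% confidence interval from −0.44 to 0.60. Rora, an orphan receptor of the clock network, was at 294, 227 and 195 RPM in fresh MuSCs and at 20.8, 18.0 and 26.7 RPM in myoblasts. The groups did not overlap, and the mean was 10.9-fold lower in myoblasts (log2FC −3.39, SE 0.24, adjusted p = 1.47e-05 by limma).

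**Figure D2:**
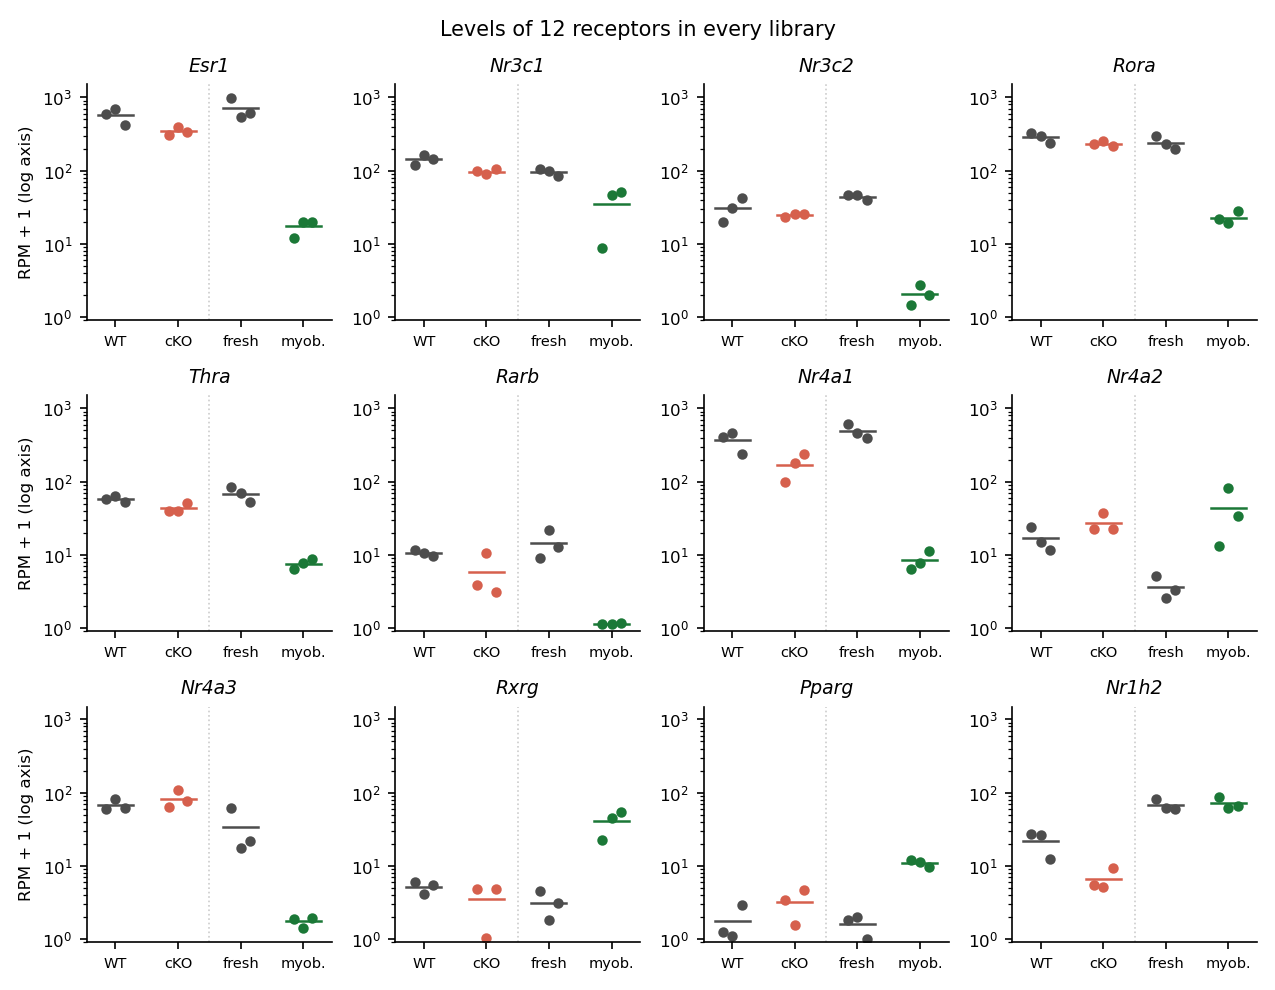
RPM + 1 (log axis) of 12 receptors in each of the 12 libraries, for WT and Nedd4L-cKO (cKO) MuSCs left of the dotted line and fresh WT MuSCs and myoblasts (myob.) right of it. Points are libraries and lines are group means, and the 2 sides were normalized separately. Esr1, Nr4a1, Rora, Thra, Nr3c2 and Rarb drop in myoblasts, Rxrg and Pparg rise, and Nr1h2 is lower in cKO than in WT MuSCs in all libraries.

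The 3 NR4A receptors did not move together. Nr4a1 (Nur77) was at 619, 467 and 399 RPM in fresh MuSCs and at 5.50, 6.72 and 10.2 RPM in myoblasts. The fall was 66.3-fold, with the lowest log2FC of the family, −5.89 (SE 0.27, adjusted p = 1.6e-06 by limma). Nr4a3 (Nor1) was at 61.0, 16.4 and 20.7 RPM in fresh MuSCs and at 0.881, 0.417 and 0.957 RPM in myoblasts. Fresh library 4 was the highest, and all 3 fresh libraries lay above the myoblasts (log2FC −4.04, SE 0.49, adjusted p = 0.000265 by limma). Nr4a2 (Nurr1) went the other way, from 4.20, 1.56 and 2.32 RPM in fresh MuSCs to 12.2, 81.2 and 33.4 RPM in myoblasts. The myoblast libraries differed widely among themselves, but all lay above the fresh ones (log2FC 3.24, SE 0.61, adjusted p = 0.00298 by limma). Per kilobase, Nr4a1 made up 89.4 ± 4.90% of the group in fresh MuSCs, and Nr4a2 made up 81.1 ± 11.9% in myoblasts. The promoters printed above carry the same number of CREB cores. Of the 15 other immediate early genes, 13 fell in myoblasts and 1 rose, with a median log2 fold change of −3.26. That was 93.3% called, against 42.8% of all genes tested. Fos fell from 5974 to 18.1 RPM, Fosb from 449 to 0.575, Btg2 from 1675 to 75.6 and Zfp36 from 243 to 5.19 (adjusted p from 2.73e-07 to 3.08e-06). The fresh cells had been taken out of muscle and sorted before lysis, and the myoblasts had grown in culture, so time in isolation and cell state cannot be told apart.

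Among the other orphan receptors, Nr2f6 was at 12.6, 14.2 and 15.3 RPM in fresh MuSCs and at 26.5, 47.7 and 39.2 RPM in myoblasts, without overlap (log2FC 1.33, SE 0.28, adjusted p = 0.00536 by limma). It shares 57.7% of its exonic bases with Ocel1 on the opposite strand, which was at 3.57 and 7.44 RPM (adjusted p = 0.0763). Nr2f2 (COUP-TFII) overlapped between the groups at 19.1 ± 8.66 and 11.4 ± 1.53 RPM, and Nr2f1 was under 0.5 RPM in all 6 libraries. Nr2c2 (TR4) was at 38.4, 24.4 and 31.8 RPM in fresh MuSCs and at 4.92, 14.4 and 18.3 RPM in myoblasts. The groups did not overlap (log2FC −1.41, SE 0.44, adjusted p = 0.0299 by limma), but the adjusted p was 0.0852 and 0.0782 without fresh libraries 4 and 6, and 51.5% of its exonic bases are shared with Mrps25, at 65.8 and 69.7 RPM. Nr2c1 and Nr6a1 had log2 fold changes of 0.09 and −0.11 and did not pass.

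Estrogen-related receptors and PGC-1 coactivators act together on mitochondrial genes. Esrra was at 4.17, 2.83 and 4.95 RPM in fresh MuSCs and at 6.84, 21.9 and 15.6 RPM in myoblasts. Myoblasts were higher without overlap (log2FC 1.55, SE 0.43, adjusted p = 0.0188 by limma), and the adjusted p was 0.0662 without fresh library 5 and 0.0779 and 0.0605 without myoblast libraries 5 and 6. Its exons share 51.6% of their bases with Trmt112, which fell from 118 to 65.1 RPM. Ppargc1a (PGC-1 alpha) was at 1.49, 2.33 and 1.04 RPM in fresh MuSCs and at 2.62, 14.5 and 8.41 RPM in myoblasts. These did not overlap either, although myoblast library 4 was close to the fresh range (log2FC 1.66, SE 0.52, adjusted p = 0.0308 by limma). Without myoblast library 5 or 6 its adjusted p was 0.10 and 0.0791, and without fresh library 4 or 6 it was 0.0689 and 0.0942. Ppargc1b was at 7.01 ± 2.19 and 14.5 ± 6.59 RPM (adjusted p = 0.128, and 0.0148 without myoblast library 4), and Esrrg at 2.23 ± 0.0736 and 1.83 ± 1.36 RPM (adjusted p = 0.541).

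Of the p160 coactivators, 2 fell. Ncoa1 (SRC-1) was at 241, 160 and 158 RPM in fresh MuSCs and at 61.3, 94.7 and 90.5 RPM in myoblasts. It was lower in every myoblast library, 2.27-fold on the mean (log2FC −1.17, SE 0.25, adjusted p = 0.00551 by limma). Ncoa3 (SRC-3) was at 56.8, 50.6 and 68.4 RPM in fresh MuSCs and at 7.72, 17.3 and 13.4 RPM in myoblasts. Its fall was 4.57-fold with no overlap (log2FC −2.16, SE 0.31, adjusted p = 0.000737 by limma). Ncoa2 was at 16.4 ± 2.77 and 15.6 ± 4.09 RPM, with a 95% confidence interval from −0.77 to 0.59. Neither corepressor passed: Ncor1 was at 69.6 ± 8.54 and 53.9 ± 17.6 RPM, and Nrip1 (RIP140) at 7.06, 45.5 and 62.3 RPM in myoblasts spread on both sides of the fresh range of 18.2 to 40.1 RPM. Without myoblast library 4, Nrip1 had a log2 fold change of 0.95 (adjusted p = 0.0446).

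**Figure D3:**
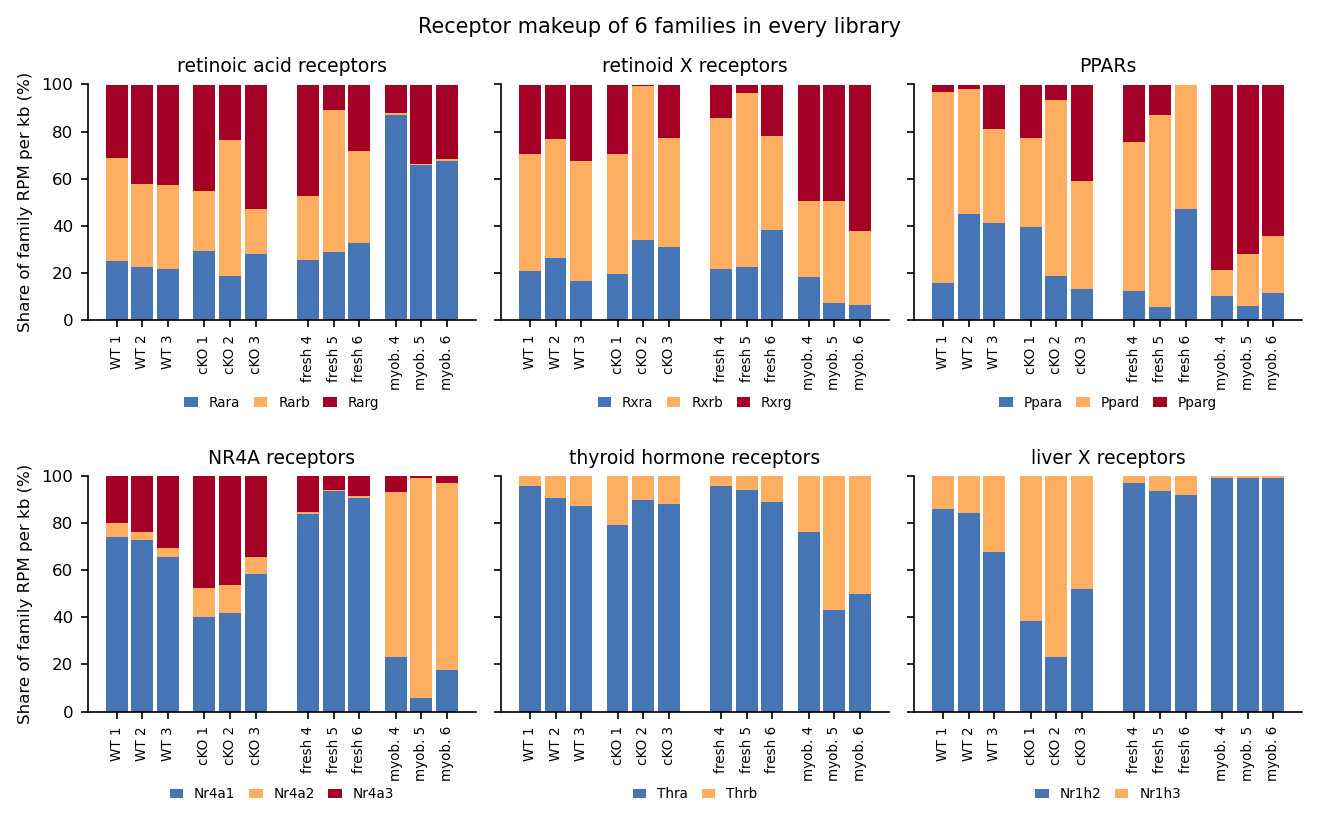
Share of each receptor in the summed RPM per kilobase of exon of its family (%), with a stacked bar for each library, for WT and Nedd4L-cKO (cKO) MuSCs, fresh WT MuSCs and myoblasts (myob.). Rarb, Nr4a1 and Thra shrink in myoblasts while Rara, Rxrg, Pparg and Nr4a2 grow, and Nr1h2 holds a smaller share in each cKO than in each WT library.

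Per kilobase of exon, the most abundant genes of the family in fresh MuSCs were Esr1 at 83.3 ± 27.1 RPM per kb, Nr4a1 at 46.9 ± 10.7, Nr1h2 at 27.3 ± 4.83 and Rora at 21.0 ± 4.47. The levels of Nr1h2 and Rora overlapped within their SD. In myoblasts Nr1h2 led at 29.0 ± 6.07 RPM per kb, ahead of Rxrg at 13.7 ± 5.58 and Nr2f6 at 9.84 ± 2.78, and the last pair overlapped within its SD. For every gene the exon length joins the exons of its annotated transcripts, 10.6 kb for Nr4a1. Levels per kilobase are therefore low estimates, and ranks and family shares depend on these lengths.

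The known target and metabolic genes of these receptors were described from a list for each pathway. In culture 88.9% of the glucocorticoid list and 85.7% of the thyroid list were called, against 42.8% of all genes tested. Of 18 glucocorticoid-induced genes, 15 fell in myoblasts and 1 rose, with a median log2 fold change of −2.93. Nfkbia fell from 696 to 41.4 RPM, Cebpd from 302 to 9.98, Dusp1 from 2764 to 182 and Mt2 from 178 to 4.40 (limma adjusted p from 5.99e-06 to 1.82e-05). Several of these genes also answer to other stimuli, and Klf9 stands on both this list and the thyroid list. Of 7 tested genes of thyroid hormone transport, conversion and response, 4 fell and 2 rose, led by Thrsp (35.0 to 0.80 RPM), Klf9 (167 to 15.7), Hr (10.9 to 1.60) and the transporter Slc16a10 (22.0 to 5.33).

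Of 9 LXR target genes, 6 fell and 0 rose (limma, adjusted p of at most 0.05, where at an unadjusted p under 0.05 the number was also 0), with a median of −1.19. Apoe, a lipid carrier, fell from 4103 to 5.01 RPM, the desaturase Scd1 from 48.8 to 1.96, Fasn from 84.1 to 36.6 and Lpcat3 from 75.3 to 39.3 (adjusted p from 8.22e-07 to 0.00492). Of 12 tested genes of retinoid metabolism and binding, 4 fell and 3 rose. The LXR list was thus called at 66.7% and the retinoid list at 58.3%, against 42.8% of all genes tested. Rarres2 fell from 816 to 0.212 RPM, the retinaldehyde dehydrogenase Aldh1a1 from 15.9 to 0.279 and Dhrs3 from 242 to 26.4, while the retinoic acid carrier Crabp2 rose from 0.248 to 9.93 RPM. The lower means of Rarres2, Aldh1a1 and Crabp2 lay at or below the level of the filter on low values. These genes may have passed it mainly through their higher group, and their calls are then no separate evidence. The 7 markers of fibro-adipogenic progenitors summed to 1402 to 1932 RPM in fresh MuSCs and 135 to 178 RPM in myoblasts, a fall that runs with those of Apoe, Rarres2 and Aldh1a1; their part in these results was not tested.

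Genes of fatty acid use went both ways. In culture 63.6% of the PPAR list and 46.2% of the ERR and PGC-1 list were called, against 42.8% of all genes tested. Of 22 tested PPAR target genes, 9 rose and 5 fell, with Fabp3 at 3.97 and 173 RPM, Cd36 at 0.595 and 17.3, Acadl at 86.7 and 239 and, falling, Fabp4 at 2.36 and 0.112 RPM. Of 13 ERR and PGC-1 target genes, 6 rose and 0 fell (limma, also 0 at an unadjusted p under 0.05), among them Mfn2, which fuses mitochondria, from 25.1 to 111 RPM, the citrate cycle enzyme Cs from 130 to 316, and Perm1 from 0.213 to 1.38. The lower means of Fabp4 and Perm1 lay below the level of the filter on low values. Both genes may have passed it mainly through their higher group, and their calls are then no separate evidence. The myofiber markers summed to 114 to 327 RPM in fresh MuSCs and 7724 to 17538 RPM in myoblasts, beside the rise of Fabp3 and Perm1, and their part was not tested. Of 4 vitamin D enzymes, Cyp27a1 fell from 11.8 to 1.10 RPM and Cyp2r1 from 3.22 to 0.884, while Cyp27b1 (0.504 and 0.336 RPM) and Dhcr7 (11.7 and 12.6 RPM) did not pass. The 50% of these enzymes called was near the 42.8% of all genes tested. Vdr itself was at 0.748, 0 and 0 RPM in fresh MuSCs and at 0.370, 0.206 and 0.15 RPM in myoblasts.

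Of 20 other cofactors, 6 fell and 2 rose, with a median log2 fold change of −0.21. The 40% called was near the 42.8% of all genes tested. The arginine methyltransferase Prmt1 rose from 53.9 to 294 RPM, and Ncoa7 fell from 138 to 23.8, the acetyltransferase Kat2b from 45.1 to 3.48 and Nsd1 from 279 to 92.7 (limma adjusted p from 9.75e-05 to 0.000928). Of the receptors outside the family, Esrrb is listed at 0 in all fresh libraries and at 0.849, 0.761 and 1.03 RPM in myoblasts (adjusted p = 0.00259 by limma, although it passed the filter through the myoblasts alone and could not be tested when any of them was left out), and Rorb was under 3 RPM throughout.

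**Figure D4:**
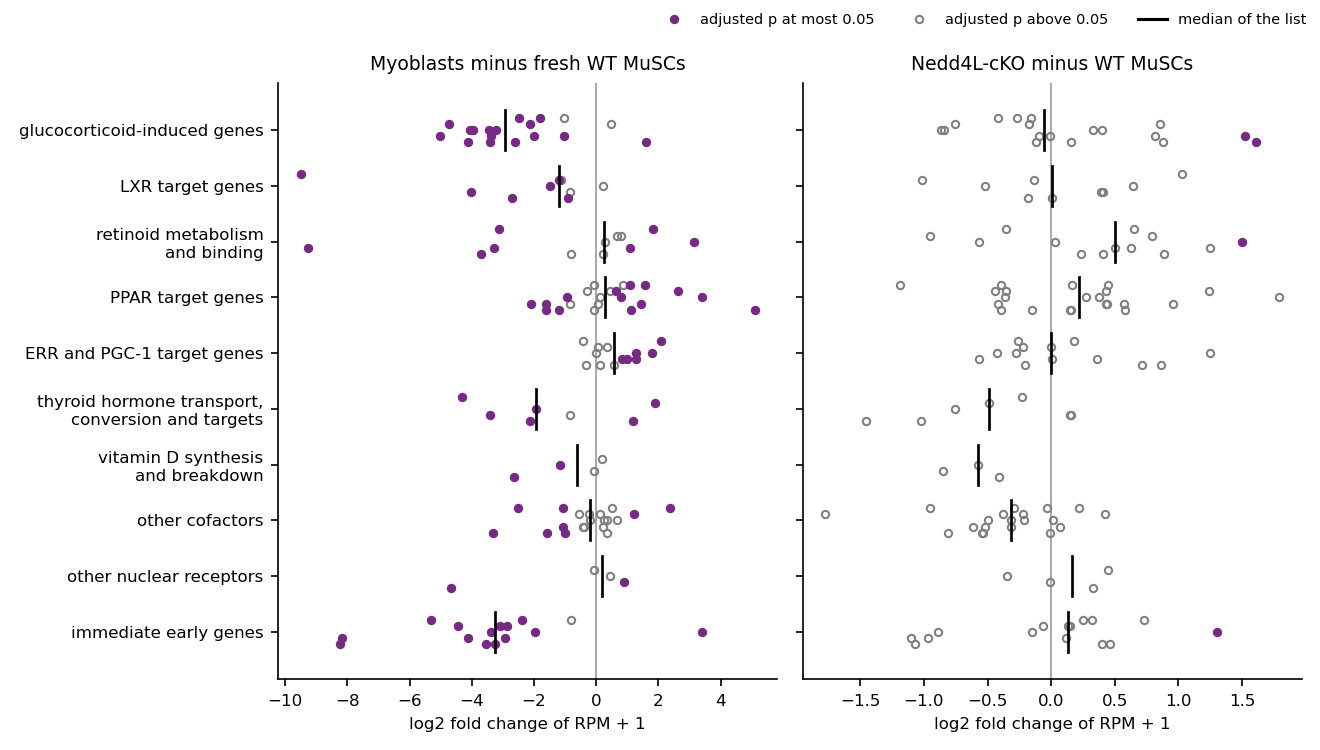
Log2 fold change of RPM + 1 of each tested gene of 10 pathway lists (filled: limma adjusted p of at most 0.05; open: above it), with the median of each list as a bar, for myoblasts against fresh WT MuSCs (left) and Nedd4L-cKO against WT MuSCs (right, narrower axis). On the left the glucocorticoid, immediate early and thyroid lists have medians of −2.93, −3.26 and −1.95, and on the right 4 genes in all are filled.

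The Nedd4L comparison asks whether loss of the ligase altered the same receptors in freshly isolated MuSCs. None of the 35 tested genes passed an adjusted p of 0.05 (limma), and the lowest was 0.0809, for Nr1h2. The nuclear receptor Nr1d1, left out of the family, did pass and was lower in Nedd4L-cKO (log2 fold change −2.90, limma adjusted p = 0.00191). Among all 15304 genes tested 0.784% passed, 0.523% higher and 0.261% lower in Nedd4L-cKO, a split of 66.7% higher that was 56.0% when each library was scaled to its own total and 55.6% among genes whose mean reached 5 RPM. At an unadjusted p under 0.05, 12 of the 35 stood apart, 3 higher and 9 lower, where 14.6% of all genes did, 7.51% higher and 7.13% lower. Non-overlapping groups were found for 11 of the 35, 3 higher and 8 lower, against 19.3% of all genes. The median log2 fold change of the family was −0.17, with 13 genes above 0 and 22 below, and that of all genes was 0.00. Leaving out WT library 2 reduced the 12 genes at an unadjusted p under 0.05 to 4, and leaving out Nedd4L-cKO library 2 or WT library 1 reduced them to 7. The 7 myofiber markers summed to 373 to 445 RPM in Nedd4L-cKO and to 151 to 330 RPM in WT libraries, without overlap, and 4 of them were higher at an unadjusted p under 0.05. The 5 cycling and committed markers summed to 357 to 714 RPM and 157 to 815 RPM, with 2 of them, Cdk1 and Top2a, higher at that level. No marker of either list passed the adjusted threshold (limma), and their part in the differences of the family was not tested.

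The largest difference of the family was in Nr1h2, LXR beta, at chr7:44199036-44203406 on GRCm39. It was at 26.0, 25.7 and 11.4 RPM in WT MuSCs and at 4.42, 4.18 and 8.48 RPM in Nedd4L-cKO MuSCs. WT library 3 was the lowest of its group and cKO library 3 the highest of its own, and the groups still did not overlap. The mean was 21.0 ± 8.35 against 5.69 ± 2.42 RPM, a log2FC of −1.69 (SE 0.40, 95% confidence interval −2.56 to −0.82, unadjusted p = 0.00119, limma adjusted p = 0.0809). The adjusted p was 0.0129 when only genes whose mean reached 5 RPM were tested and 0.0346 without WT library 3, and at most 0.271, without WT library 2. Nr1h3, LXR alpha, lay on the other side, at 8.35, 9.36 and 10.5 RPM in WT and 13.8, 27.3 and 15.2 RPM in Nedd4L-cKO MuSCs (log2 fold change 0.87, adjusted p = 0.268). Per kilobase, Nr1h2 made up 67.9 to 85.9% of the liver X receptors in WT and 23.0 to 52.0% in Nedd4L-cKO MuSCs, with no overlap. Of the 9 LXR target genes none passed (limma), and their median log2 fold change was 0.01, with values from −1.01 to 1.03. At an unadjusted p under 0.05 stood 3 of them, 2 higher and 1 lower in Nedd4L-cKO, or 33.3%, against 14.6% of all genes.

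Nr4a1 was at 404, 457 and 237 RPM in WT and at 96.7, 178 and 236 RPM in Nedd4L-cKO MuSCs. The highest cKO library reached almost the lowest WT library (log2FC −1.14, SE 0.35, adjusted p = 0.176 by limma). Nr4a2 and Nr4a3 had log2 fold changes of 0.73 and 0.27 (adjusted p = 0.354 and 0.700). Nr4a1 therefore made up 65.4 to 74.1% of NR4A transcripts per kilobase in WT and 40.1 to 58.2% in Nedd4L-cKO libraries. Of the 15 other immediate early genes, Ier3 rose from 32.7 to 83.3 RPM (adjusted p = 0.0467), a call lost under 12 of 14 alternative fits, each library left out included (adjusted p from 0.00752 to 0.135), and the median of the list was 0.14.

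Esrrg, an estrogen-related receptor of oxidative muscle, was at 5.00, 5.41 and 5.37 RPM in WT and at 1.97, 0.886 and 2.93 RPM in Nedd4L-cKO MuSCs. All cKO libraries were below all WT libraries (log2FC −1.16, SE 0.38, adjusted p = 0.191 by limma). The 13 ERR and PGC-1 target genes had a median of 0.00 and none passed (limma, 3 at an unadjusted p under 0.05, or 23.1%, against 14.6% of all genes). Esrra, Ppargc1a and Ppargc1b had log2 fold changes of 0.07, −0.09 and 0.09.

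All 3 retinoic acid receptors had means below WT at an unadjusted p under 0.05. Rarb was at 10.8, 9.48 and 8.70 RPM in WT and at 2.89, 9.68 and 2.11 RPM in Nedd4L-cKO MuSCs. The second cKO library lay within the WT range (log2FC −1.07, SE 0.45, adjusted p = 0.307 by limma). Rarg was at 7.12, 10.6 and 9.52 RPM against 4.69, 3.65 and 5.29 RPM, and Rara at 9.38, 9.31 and 7.99 RPM against 5.03, 4.76 and 4.61 RPM. Neither pair overlapped, with log2 fold changes of −0.86 and −0.77 and adjusted p of 0.275 and 0.30. Of 13 tested genes of retinoid metabolism and binding, Rarres2 rose from 347 to 997 RPM (log2 fold change 1.5, limma adjusted p = 0.0299), a call lost under 6 of 14 alternative fits, which were those without cKO or WT library 1 or 2, the replicate block and limma without trend and robust options (adjusted p from 0.00195 to 0.145), and the median of the list was 0.50.

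Nr2f2 was at 19.2, 17.0 and 30.5 RPM in WT and at 28.3, 30.0 and 80.2 RPM in Nedd4L-cKO MuSCs. The groups overlapped and the third cKO library stood apart (log2FC 0.89, SE 0.40, adjusted p = 0.328 by limma). The 5 mural cell markers, all of which were above 1 RPM in every library, summed to 1184 to 1901 RPM in WT and to 2164 to 3190 RPM in Nedd4L-cKO libraries, highest in the third, and their part in the levels of Nr2f2 was not tested. Nr2f6 had a log2 fold change of −0.76 (adjusted p = 0.339), and Nr2f2 made up 49.2 to 59.7% of the COUP-TFs per kilobase in WT and 76.9 to 82.7% in Nedd4L-cKO libraries.

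Of the steroid receptors, Esr1 and Nr3c1 lay below WT without passing, and Nr3c2 overlapped between the groups. Esr1 was at 594, 696 and 416 RPM in WT and at 306, 399 and 341 RPM in Nedd4L-cKO MuSCs, and Nr3c1 at 120, 162 and 142 RPM against 98.1, 87.7 and 103 RPM. Neither gene overlapped between the groups, with log2 fold changes of −0.68 and −0.54 and adjusted p of 0.268 and 0.321. Nr3c2 was at 19.1, 29.5 and 41.7 RPM in WT and at 22.2, 24.2 and 24.6 RPM in Nedd4L-cKO MuSCs. Every cKO library of Nr3c2 lay within the WT range (log2 fold change −0.27, limma adjusted p = 0.735). Of the 18 glucocorticoid-induced genes, the metallothioneins Mt1 and Mt2 rose, from 972 to 3009 RPM and from 410 to 1186 RPM (log2 fold change 1.61 and 1.52, limma adjusted p = 0.0149 and 0.0176), none fell (2 were lower at an unadjusted p under 0.05), and the median was −0.05. Both calls were lost without cKO library 2 and without WT library 1 or 2, and that of Mt2 also without trend and robust options. Thra had a log2 fold change of −0.42 (adjusted p = 0.46) beside Nr1d1, its opposite-strand neighbour, at 108 and 13.5 RPM (adjusted p = 0.00191).

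Of the cofactors, Ncor1 was at 64.3, 68.1 and 87.7 RPM in WT and at 93.6, 102 and 186 RPM in Nedd4L-cKO MuSCs, without overlap (log2 fold change 0.73, limma adjusted p = 0.296). The other 6 cofactors had log2 fold changes from −0.41 to 0.09, and Ncoa1, at 158, 166 and 171 RPM against 128, 162 and 153 RPM, had a 95% confidence interval from −0.66 to 0.34. None of the 20 further cofactors (2 at an unadjusted p under 0.05), 22 PPAR target genes (5), 7 thyroid genes (3), 3 vitamin D enzymes (0) and 4 other receptors (0) passed by limma. Among all genes tested, 14.6% reached that unadjusted level, against 10% of the cofactors and 22.7% of the PPAR list. Cyp27a1 was at 11.4 and 8.36 RPM, Cyp2r1 at 3.62 and 1.37 and Dhcr7 at 6.75 and 4.23. Esr2 and Rorb had means of at most 0.653 RPM in either group.

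The comparisons share no sample, so their values can be set side by side. Of the 12 genes of the family that fell in myoblasts, 10 had a log2 fold change below 0 in Nedd4L-cKO MuSCs, as did 50.1% of all genes that fell in myoblasts. Of the 7 that rose in myoblasts, 3 were above 0 in Nedd4L-cKO MuSCs, as were 46.0% of all such genes. Whatever their direction in culture, 22 of the 35 tested genes of the family were below 0 in Nedd4L-cKO MuSCs. These are counts of directions, and the differences of the family in Nedd4L-cKO MuSCs did not pass the adjusted threshold. Of those 10, Nr4a1, Rarb, Esr1 and Nr3c1 differed most in Nedd4L-cKO against WT MuSCs, with log2FC of −1.14, −1.07, −0.68 and −0.54. In myoblasts against fresh MuSCs these genes had log2FC of −5.89, −3.55, −5.34 and −1.82. The rest of those 10 had log2FC from −0.49 (Nr2c2) to −0.16 (Ncoa1) in Nedd4L-cKO MuSCs. The difference of Rarb in myoblasts followed from passing the filter. The 2 that went the other way were Nr1h3 (0.87 in Nedd4L-cKO, −1.97 in myoblasts) and Nr4a3 (0.27 and −4.04). Nr1h2, with the largest difference of the family in Nedd4L-cKO MuSCs (−1.69), was at 0.08 in myoblasts.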

How the data were processed

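RNA was sequenced from 12 libraries of 1000 cells, read in single ends of 75 bases. The authors estimated transcript counts with kallisto 0.46.1 on a GENCODE annotation, summed them per gene with tximport and normalized them with DESeq2. The deposited values are a signal, these normalized counts, in a separate table for each comparison. Per the file headers the tables also hold the authors' fold changes, p-values, repeated counts and RPM, none of which were used. From 41.6 to 60.7% of low values were whole multiples of a step within 0.02, so reads were not recovered and no count test was run.

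RPM was computed here by dividing normalized counts by the average library total of the table. Genes that reached 10 normalized counts in 3 or more libraries were tested on log2(RPM + 1) with limma 3.58.1 (R 4.3.3, mean-variance trend, robust), adjusted by Benjamini-Hochberg over all genes tested, and called at an adjusted p up to 0.05. Fold changes of low genes are understated on this scale. The fit was tested on simulated data with large changes in well-expressed genes only, so smaller changes and low genes were not covered. Groups came from the sample labels. P-values measure the spread between libraries, since the labels do not say which animals they came from.

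The members, the pathway lists and the tests were chosen with earlier results of these data known. Named in full were called genes and the 5 largest differences of each comparison, and from a list at most 4 called genes of lowest adjusted p, or all genes of a list of 5 or fewer. Some genes that these rules name are not reported here. Exonic lengths and overlaps came from GENCODE M39, a later release. Alternatives were RLE factors, own totals with and without mitochondrial genes, a pseudocount of 0.1, other filters, limma without trend and robust options, the study's thresholds, the block and each library left out. Promoters of 5 genes and protein sequences were not used here. Python 3.11.15, pandas 2.3.3 and matplotlib 3.10.9 were used.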

Additional observations from a re-analysis of the deposited data

How the results depend on the processing

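In the culture comparison 19 genes of the family were called, 18 to 19 under the alternatives on all libraries and 15 to 22 with a library left out. Fresh and myoblast libraries there are matched by number in both titles and sample descriptions, which do not say what the numbers stand for. Correlations of the deviations of these pairs were −0.03, −0.01 and 0.02, and not every library correlated best with its own number. The replicate block left 19 called and changed the call of no gene of the family. All genes called numbered 6566 and, under the study's thresholds, 3872. In the Nedd4L comparison 0 were called, 1 (Nr1h2) among genes whose mean reached 5 RPM, and 0 to 1 with a library left out. The 12 genes at an unadjusted p under 0.05 became 4 to 10 with a library left out. All genes called numbered 120, and 329 among genes whose mean reached 5 RPM, 50 without trend and robust options and 21 (without cKO library 2) to 176 (without WT library 3) with a library left out, with 39 and 75 without WT libraries 2 and 1 and 52 without cKO library 1. Same-numbered libraries there are of different genotype (correlations of deviations 0.02, −0.02 and −0.18), and the replicate block gave 76 calls and 0 of the family. Single genes kept their direction wherever they were called, and of these values 962 stayed on their side of the threshold, 14 lost a call and 5 gained one. Nr3c1 in culture had an adjusted p of 0.0508 without trend and robust options, and Nr1h3 in culture missed the 5 RPM of the study. In the Nedd4L comparison 1 LXR target was called without cKO library 3, and 2 PPAR targets and 1 further cofactor without WT library 3, and in culture 1 vitamin D enzyme in place of 2 without myoblast library 6. The cause of these moves was not tested. Of the low genes in culture, Ppara, Ppard and Nr2f1 had 95% confidence intervals of the log2 fold change from −0.16 to 1.06, −1.0 to 0.77 and −0.31 to 0.53, on a scale that understates changes at such levels.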

Other observations

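WT MuSCs taken fresh from muscle stand in both tables, which were normalized separately, so their levels were set side by side without a test. Nr1h2 was at 11.4 to 26.0 RPM in the WT libraries of the Nedd4L table and at 59.4 to 80.0 RPM in the fresh libraries of the culture table. Nr4a2 was at 10.7 to 22.7 RPM in the former and at 1.56 to 4.20 RPM in the latter. Nr4a3 (59.6 to 81.2 and 16.4 to 61.0 RPM), Esr1 (416 to 696 and 545 to 968 RPM) and Rora (235 to 322 and 195 to 294 RPM) overlapped between the tables. The reason for the gaps of Nr1h2 and Nr4a2 was not tested.

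Myoblast library 4 held the lowest myoblast level of, among others, Nr3c1, Esrra, Rxrg, Nr2c2, Nr4a2, Ncoa1, Ncoa3, Ppargc1a, Ppargc1b, Ncor1 and Nrip1. Without that library 22 genes of the family were called, with Rxrb, Ppargc1b and Nrip1 added.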
